A study of Mus musculus with 18 samples.

Results

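The clustered protocadherins are a family of cadherin-like cell surface proteins encoded by 3 neighbouring gene clusters, alpha, beta and gamma, on mouse chromosome 18. The members were taken by gene name, as every alpha, beta and gamma protocadherin with a numbered or C-type symbol, and their transcripts were summed for each gene identifier. The GENCODE M21 annotation of mm10 holds 58 such genes, 14 alpha, 22 beta and 22 gamma, of which 55 were listed in at least 1 of the 3 deposited tables of 35310 genes, 45 in all 3 tables and 3 in none. The name Pcdha11 is carried by 2 gene identifiers, which were kept apart. The alpha cluster spans positions 36930184 to 37187661 of chromosome 18 (mm10), the beta cluster 37264938 to 37524479 and the gamma cluster 37661793 to 37841873, all on the plus strand.

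Each alpha and gamma gene consists of its own large first exon with its own promoter, spliced to 3 constant exons that all genes of the cluster share, whereas a beta gene is a single large exon. Neurons choose a few of the alternate promoters, a choice that involves the insulator protein CTCF, cohesin and DNA methylation of the promoters, and the resulting mixtures of surface proteins mediate self-recognition of axons and dendrites. The C-type genes, Pcdhac1, Pcdhac2, Pcdhgc3, Pcdhgc4 and Pcdhgc5, lie at the ends of the alpha and gamma clusters and are used more evenly among neurons. In mouse embryos Dnmt3b methylates the alternate promoters and the structural protein Smchd1 helps to keep the clusters silent. Outside the nervous system most members are expressed little, and methylation of these promoters is often altered in tumours.

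RNA was sequenced from 18 libraries in 6 groups of 3. The groups were MCA205 cells in culture with the genotype sgNAT10 and wild type (WT), TC1 cells in culture with the genotype sgNAT10 and WT, and tumours that grew under the skin of mice from TC1 cells with the genotype sgNAT10 and WT and were taken on day 8. A name of the form sgNAT10 denotes a CRISPR guide against Nat10, the RNA cytidine acetyltransferase. The labels do not say whether the sgNAT10 cells were a clone or a pool, whether the WT cells carried a guide, or that libraries of a group came from separate cultures or mice, so the spread behind each p-value is that between libraries and could be a technical one. The series title names a path from NAT10 over MYC, CDK2 and DNMT1 to interferon, which puts DNA methylation among the questions asked. MCA205 is a fibrosarcoma line. TC1 was made from mouse lung cells with papillomavirus and Ras oncogenes, although the labels describe it as a fibrosarcoma. The 8 fibroblast and mesenchyme markers summed to between 1041 and 1679 FPKM in the TC1 cell libraries. The 6 lung epithelium markers summed to 67.9, 46.6 and 39.8 FPKM in sgNAT10 cells, against 91.8, 122 and 27.8 FPKM in WT cells. Of these, Krt8, Epcam, Krt18 and Cdh1, which epithelia in general express, made up nearly all, from 1.61 FPKM for Cdh1 to 73.8 FPKM for Krt8, while Nkx2-1 and Sftpc stayed at or below 0.101 FPKM.

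Libraries held 51661298 to 78501790 estimated counts. Levels are given in FPKM (fragments per kilobase of transcript, scaled to the depth of the library) in the order of replicates 1, 2 and 3, and changes are log2 ratios of sgNAT10 over WT from edgeR's quasi-likelihood test on the estimated counts, with the standard error. Means are given ± SD of 3 libraries. A gene is called at an adjusted p under 0.05 (Benjamini-Hochberg over all genes tested), and rose, fell, higher and lower refer to such calls unless values alone are given. The transcript level of Nat10 does not check the labels, since a frameshift need not lower it. In MCA205 cells Nat10 stood at 13.2, 13.6 and 13.6 FPKM in sgNAT10 cells, against 14.2, 12.5 and 13.8 FPKM in WT cells (adjusted p = 0.984), although on coding transcripts alone its log2 change there was -0.46 (adjusted p = 0.0343). For TC1 cells the values were 14.2, 12.4 and 11.7 FPKM in sgNAT10 cells, against 13.9, 14.1 and 15.9 FPKM in WT cells (adjusted p = 0.161). The tumours held 12.3, 16.1 and 16.3 FPKM in sgNAT10 tumours, against 14.8, 16.2 and 15.3 FPKM in WT tumours (adjusted p = 0.336).

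Some libraries stood apart. In the MCA205 set, WT 1 and sgNAT10 2 held little RNA of liver and intestine and the other 4 libraries held more: the 10 markers summed to 70.2, 1.87 and 82 FPKM in sgNAT10 cells, against 3.47, 249 and 83.7 FPKM in WT cells. In TC1 cells the same sum was 1162, 994 and 795 FPKM in sgNAT10 cells, against 1014, 1251 and 610 FPKM in WT cells, and in tumours 349, 392 and 370 FPKM in sgNAT10 tumours, against 3.12, 64 and 169 FPKM in WT tumours. These sums overlapped between genotypes in both cell sets and did not overlap in the tumours. There Alb, Apoa1, Apoa2, Fabp1 and Fabp2 were higher in every sgNAT10 tumour, while Lgals4, Vil1, Cdx1, Cdx2 and Reg3g overlapped. Lgals4, for one, was at 9.42, 13.2 and 5.86 FPKM in sgNAT10 tumours, against 1.74, 26.35 and 22.9 FPKM in WT tumours. The part of this RNA in the results below was not tested, but the MCA205 comparison was also made without the 2 libraries that held little of it. Tumour WT 3 had the highest summed level of both the beta and the gamma cluster among the WT tumours.

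In FPKM, the gamma sum was the highest of the 3 clusters in every library and the alpha sum the lowest in every library but the 3 of sgNAT10 TC1 cells, where beta was lower still, and the beta sum differed in opposite directions in the cell lines. In MCA205 cells the beta members together stood at 12.2, 13.3 and 13.5 FPKM in sgNAT10 cells, against 6.22, 5.41 and 5.41 FPKM in WT cells, a 2.28-fold difference of the means. In TC1 cells the beta sum was 0.121, 0.265 and 0.27 FPKM in sgNAT10 cells, against 3.95, 2.52 and 2.18 FPKM in WT cells, a difference of 13.2-fold in the other direction. The tumours had beta sums of 16.5, 15.7 and 13.5 FPKM in sgNAT10 tumours, against 5.11, 6.8 and 12.5 FPKM in WT tumours. Every sgNAT10 library lay above every WT library in the MCA205 cells and in the tumours, and below every WT library in TC1 cells.

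The gamma sum was higher than the beta sum in every library, and differed less between genotypes. In MCA205 cells it was 54.5, 55.9 and 56.3 FPKM in sgNAT10 cells, against 54.7, 52.6 and 52.4 FPKM in WT cells. In TC1 cells it was 50.1, 53.5 and 53.2 FPKM in sgNAT10 cells, against 44.2, 41.8 and 44.6 FPKM in WT cells, with all sgNAT10 libraries above all WT libraries. In the tumours the sums were 39.4, 35.9 and 27.8 FPKM in sgNAT10 tumours, against 39.5, 47.6 and 65.9 FPKM in WT tumours, with every sgNAT10 value below every WT value. The alpha sum stayed below 1 FPKM in every library. In TC1 cells it was 0.23, 0.684 and 0.571 FPKM in sgNAT10 cells, against 0.0772, 0.0413 and 0.0172 FPKM in WT cells. In MCA205 cells it was 0.0404 ± 0.0164 FPKM in sgNAT10 cells and 0.0365 ± 0.0362 FPKM in WT cells, and in the tumours 0.0507 ± 0.00576 FPKM in sgNAT10 tumours and 0.0209 ± 0.014 FPKM in WT tumours (SD, n = 3). The tables may have been normalised separately, so levels are not tested across them. In the tumours, which also hold host cells, fewer cells of a type and less RNA per cell cannot be told apart.

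**Figure D1:**
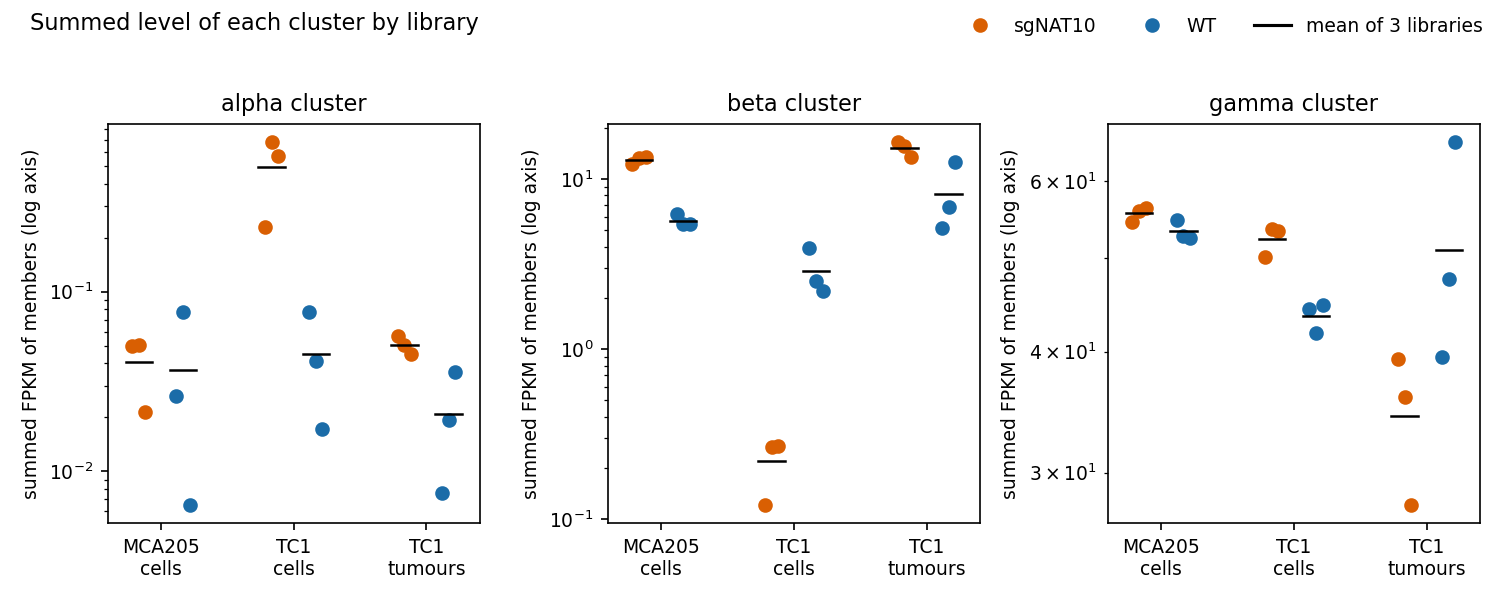
Summed FPKM (log axis, a separate range in each panel) of the members of the alpha, beta and gamma clusters in each library of MCA205 cells, TC1 cells and TC1 tumours. Points are libraries, sgNAT10 left of WT, and lines are means of 3 libraries; the beta sum of the TC1 sgNAT10 libraries lies between 0.121 and 0.270 FPKM, below the WT libraries at 2.18 to 3.95 FPKM, while in MCA205 cells the sgNAT10 libraries lie above the WT libraries.

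As a share of the summed level of all members, beta genes took 18.9 ± 0.573% in sgNAT10 cells and 9.62 ± 0.507% in WT cells of the MCA205 line (SD, n = 3). In TC1 cells they took 0.409 ± 0.146% in sgNAT10 cells and 6.17 ± 1.81% in WT cells, and in the tumours 30.9 ± 1.6% in sgNAT10 tumours and 13.3 ± 2.34% in WT tumours. Pcdhgc3 alone took 68.7 ± 1.5% in sgNAT10 cells and 81.5 ± 0.654% in WT cells of the MCA205 line. Of the TC1 line it took 92.6 ± 0.797% in sgNAT10 cells and 86.6 ± 2.32% in WT cells, and in the tumours 49.8 ± 3.78% in sgNAT10 tumours and 68.2 ± 1.33% in WT tumours. Per length, Pcdhgc3 thus made up at least 67.2% of the output of the 3 clusters in every cell library. Its share was lower in sgNAT10 than in WT samples of MCA205 cells and tumours and higher in sgNAT10 than in WT TC1 cells.

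Counts of calls are read against the whole table. In MCA205 cells 34 members could be tested, of which 14 rose and 3 fell, while 40.6% of all 18101 genes tested were called, 21.2% higher and 19.4% lower. In TC1 cells 29 could be tested, of which 3 rose and 11 fell, beside 37.9% of 18823 genes, 15.9% higher and 22.0% lower. In the tumours 40 could be tested, of which 5 rose and 3 fell, beside 17.4% of 19244 genes, 7.65% higher and 9.72% lower. Called members were therefore about as frequent as called genes at large in the tumours and somewhat more frequent in the cell lines, where a large share of the transcriptome differed. The members that were not tested had too few counts, and a member that passed this filter through its higher group alone was bound to differ. Counts also moved with single libraries. Without WT 3, 9 members rose in MCA205 cells, and without sgNAT10 1, sgNAT10 3 or WT 3, 1 fell. In TC1 cells 6 rose without sgNAT10 1, and 7 fell without sgNAT10 3 or WT 1. In tumours 0 rose without sgNAT10 2, sgNAT10 3 or WT 2, 1 without sgNAT10 1 and 2 without WT 1, while 1 fell without any sgNAT10 library or WT 2. The share of all genes called moved too. In tumours it was 4.89%, 2.79% and 4.57% without sgNAT10 1, 2 or 3, and 16.1%, 5.40% and 23.1% without WT 1, 2 or 3. With 1 library left out it was 32.8% to 37.5% in MCA205 cells and 26.8% to 40.9% in TC1 cells. The median log2 change over the members tested was 1.05 in MCA205 cells, -1.72 in TC1 cells and 0.61 in tumours, beside -0.03, -0.08 and 0.02 over all genes tested. In all, 28 members were called in at least 1 comparison and 0 in all 3 comparisons; 5 were higher in MCA205 cells and lower in TC1 cells, and 1, Pcdhgb6, was lower in both.

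The beta cluster accounted for most of the MCA205 calls. Of its 22 genes 21 were listed and 18 tested, of which 12 rose, 0 fell and 6 were not called, with 13 of the 18 under an unadjusted p of 0.05 (DESeq2 called no fall either). The edgeR calls made up 66.67% of the beta genes tested, beside 40.6% of all genes. For an unadjusted p and for overlap between groups, the share over all genes was not counted, so such numbers only describe the cluster. The mean level was higher in sgNAT10 cells for 21 of 21 listed genes, and the groups did not overlap for 15. The highest was Pcdhb17, at 2.44, 2.82 and 3.08 FPKM in sgNAT10 cells, against 0.725, 0.88 and 0.818 FPKM in WT cells (log2 change 1.79 ± 0.13, adjusted p = 7.03e-05). Pcdhb5 stood at 1.61, 2.05 and 2.0 FPKM in sgNAT10 cells, against 0.455, 0.576 and 0.583 FPKM in WT cells (log2 change 1.81 ± 0.18, adjusted p = 0.000302). Pcdhb18 was listed at 1.34, 1.1 and 1.23 FPKM in sgNAT10 cells, against 0.619, 0.603 and 0.517 FPKM in WT cells (log2 change 1.08 ± 0.16, adjusted p = 0.00186). The values of the genotypes did not overlap for any of these genes, and their calls held with each library left out.

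Pcdhb16 was at 0.982, 1.33 and 1.08 FPKM in sgNAT10 cells, against 0.763, 0.566 and 0.601 FPKM in WT cells (log2 change 0.82 ± 0.19, adjusted p = 0.014). Pcdhb15 was at 0.697, 0.761 and 0.954 FPKM in sgNAT10 cells, against 0.267, 0.181 and 0.119 FPKM in WT cells (log2 change 2.07 ± 0.35, adjusted p = 0.00347). Pcdhb14 was at 0.442, 0.509 and 0.519 FPKM in sgNAT10 cells, against 0.233, 0.137 and 0.179 FPKM in WT cells (log2 change 1.42 ± 0.25, adjusted p = 0.00364). Groups did not overlap for these genes either; the call for Pcdhb16 was lost without WT 3 (adjusted p = 0.0522). Pcdhb7 was at 0.288, 0.355 and 0.361 FPKM in sgNAT10 cells, against 0.10, 0.149 and 0.137 FPKM in WT cells (log2 change 1.36 ± 0.31, adjusted p = 0.0114). Pcdhb9 was at 0.682, 0.529 and 0.619 FPKM in sgNAT10 cells, against 0, 0.0576 and 0 FPKM in WT cells (log2 change 4.93 ± 1.28, adjusted p = 0.0199). Pcdhb3 was at 0.141, 0.155 and 0.154 FPKM in sgNAT10 cells, against 0 FPKM in all 3 WT libraries (adjusted p = 0.00138). Both Pcdhb9 and Pcdhb3 were near or at 0 in WT cells: at a floor of 3 estimated counts per WT library Pcdhb3 was at least 12.2-fold higher in sgNAT10 cells. Both passed the count filter through the sgNAT10 libraries and were bound to differ.

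Marker sums of other cell types differed between the MCA205 genotypes too. Neuron markers summed to 37.3, 38.1 and 36.2 FPKM in sgNAT10 cells, against 11.3, 13.9 and 11.6 FPKM in WT cells, nearly all of it Tubb3, while Rbfox3 and Syt1 stayed under 0.1 FPKM in every library. Fibroblast markers summed to 811, 832 and 825 FPKM in sgNAT10 cells, against 598, 594 and 592 FPKM in WT cells, macrophage markers to 18.9, 13.5 and 18.9 FPKM in sgNAT10 cells, against 3.79, 10.9 and 10.1 FPKM in WT cells and endothelial markers to 5.93, 6.26 and 5.96 FPKM in sgNAT10 cells, against 0.655, 2.54 and 0.684 FPKM in WT cells. These sums were higher in every sgNAT10 library than in every WT library, but not all of their genes were. Among the fibroblast genes, Dcn, Vim and Pdgfra were higher in every sgNAT10 library, while Col1a2 and Fn1 were lower in every one. Col1a2 was at 2.213, 0.1307 and 2.448 FPKM in sgNAT10 cells, against 28.33, 30.32 and 27.74 FPKM in WT cells. Of the macrophage genes only Cd68, and of the endothelial genes only Cdh5, did not overlap. The part of these cells in the beta values was not tested.

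Lower expressed genes followed. Pcdhb12 was at 0.183, 0.25 and 0.188 FPKM in sgNAT10 cells, against 0.0871, 0.0576 and 0.0489 FPKM in WT cells (log2 change 1.64 ± 0.42, adjusted p = 0.0193). Pcdhb4 was at 0.118, 0.218 and 0.153 FPKM in sgNAT10 cells, against 0.0602, 0.0629 and 0.0731 FPKM in WT cells (log2 change 1.32 ± 0.40, adjusted p = 0.0368). Pcdhb8 averaged 0.28 ± 0.136 FPKM in sgNAT10 cells and 0.131 ± 0.122 FPKM in WT cells (log2 change 1.47 ± 0.48, adjusted p = 0.0462), with overlapping groups. The calls for these 3 genes were fragile. That for Pcdhb4 was lost when any 1 of the 6 libraries was left out (adjusted p 0.0518 to 0.153), that for Pcdhb8 without any library except WT 1 (up to 0.148), that for Pcdhb12 without sgNAT10 2, WT 2 or WT 3 (up to 0.075), and that for Pcdhb9 without sgNAT10 1, sgNAT10 3 or WT 3 (up to 0.0678). Without both MCA205 WT 1 and sgNAT10 2, 12 members were higher and 2 lower, with Pcdhb17 and Pcdhb5 at adjusted p of 0.000878 and 0.0022, and with Pcdhb4 and Pcdhb7 no longer called (adjusted p = 0.185 and 0.0523).

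Genes Pcdhb19 to Pcdhb22, next to the gamma cluster, were not called. Pcdhb19 was at 0.302, 0.267 and 0.291 FPKM in sgNAT10 cells, against 0.252, 0.188 and 0.0898 FPKM in WT cells (log2 change 0.70 ± 0.38, adjusted p = 0.198). Pcdhb20 was at 0.622, 0.712 and 0.803 FPKM in sgNAT10 cells, against 0.463, 0.465 and 0.752 FPKM in WT cells (log2 change 0.35 ± 0.27, adjusted p = 0.355). Pcdhb21 was at 0.758, 0.714 and 0.799 FPKM in sgNAT10 cells, against 0.695, 0.597 and 0.64 FPKM in WT cells (log2 change 0.24 ± 0.16, adjusted p = 0.313). The groups were separate for Pcdhb19 and Pcdhb21. Pcdhb22 was at 0.936, 0.898 and 0.82 FPKM in sgNAT10 cells, against 1.09, 0.774 and 0.695 FPKM in WT cells (log2 change 0.06 ± 0.20, adjusted p = 0.859). Genes Pcdhb1 to Pcdhb12 together stood at 3.63, 4.13 and 3.85 FPKM in sgNAT10 cells, against 1.11, 1.02 and 0.996 FPKM in WT cells, and Pcdhb13 to Pcdhb22 at 8.52, 9.13 and 9.61 FPKM in sgNAT10 cells, against 5.11, 4.39 and 4.41 FPKM in WT cells. On the log2 scale these sums differed by 1.90 and 0.97. Along the cluster, the log2 change and the order of the gene had a Spearman's rho of -0.66 over 18 genes, and the WT level and the order had a rho of 0.74 over 22 genes; genes share libraries and the WT values enter both measures, so this is a description. Pcdhb6 was at 0.0833, 0.0184 and 0 FPKM in sgNAT10 cells, against 0.0252, 0.0234 and 0.0364 FPKM in WT cells and Pcdhb10 at 0.00861, 0.102 and 0.0673 FPKM in sgNAT10 cells, against 0.043, 0 and 0.0682 FPKM in WT cells, with overlapping groups.

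**Figure D2:**
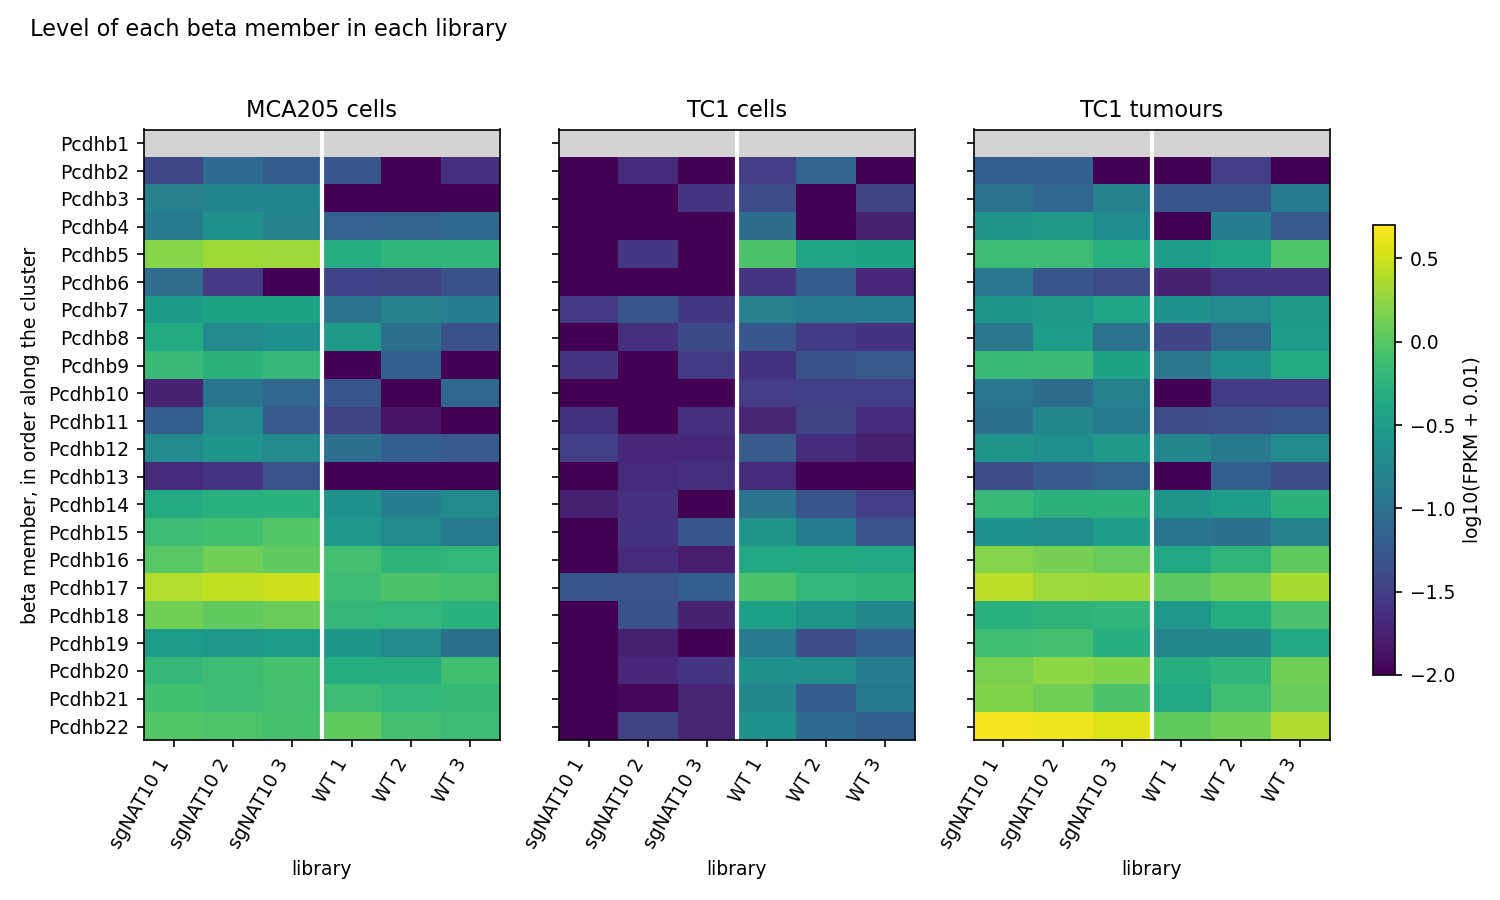
Level of each beta member, as log10(FPKM + 0.01), in each library of MCA205 cells, TC1 cells and TC1 tumours, with the 3 sgNAT10 libraries left of the white line and the 3 WT libraries right of it. Grey marks Pcdhb1, which no table listed; the sgNAT10 TC1 libraries are dark across nearly all genes, and Pcdhb5 and Pcdhb17 stand out in the sgNAT10 MCA205 libraries.

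In TC1 cells the beta genes were lower in the sgNAT10 libraries. Of the 10 tested, 9 fell, 0 rose and 1 was not called, with 10 of 10 under an unadjusted p of 0.05 (DESeq2 called no rise either), and the mean was lower for 20 of 21 listed genes, with Pcdhb13 the exception. The edgeR calls made up 90.0% of the beta genes tested, beside 37.9% of all genes. The share of all genes under an unadjusted p was not counted. The 10 genes tested include those with enough counts in WT cells alone, so their count is not independent of the direction. In sgNAT10 cells 0 beta genes reached a mean of 0.1 FPKM, against 9 genes in WT cells. Pcdhb17 was at 0.043, 0.0392 and 0.0554 FPKM in sgNAT10 cells, against 0.847, 0.607 and 0.565 FPKM in WT cells (log2 change -3.85 ± 0.31, adjusted p = 0.000187). Pcdhb5 was at 0, 0.0176 and 0 FPKM in sgNAT10 cells, against 0.864, 0.371 and 0.354 FPKM in WT cells (log2 change -6.40 ± 0.99, adjusted p = 0.00263). Pcdhb16 was at 0, 0.0111 and 0.00591 FPKM in sgNAT10 cells, against 0.421, 0.423 and 0.41 FPKM in WT cells (log2 change -6.08 ± 0.67, adjusted p = 0.00063). All 3 genes, which rose in MCA205 cells, were thus near 0 in the sgNAT10 TC1 libraries.

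Pcdhb20 was at 0, 0.0101 and 0.0153 FPKM in sgNAT10 cells, against 0.217, 0.208 and 0.127 FPKM in WT cells (log2 change -4.14 ± 0.79, adjusted p = 0.00612). Pcdhb21 was at 0, 0.00152 and 0.00929 FPKM in sgNAT10 cells, against 0.158, 0.0512 and 0.112 FPKM in WT cells (log2 change -4.52 ± 0.88, adjusted p = 0.00677). Pcdhb18 was at 0, 0.037 and 0.00851 FPKM in sgNAT10 cells, against 0.321, 0.238 and 0.163 FPKM in WT cells (log2 change -3.97 ± 0.93, adjusted p = 0.0143). In each case the highest sgNAT10 library lay below the lowest WT library. Pcdhb7 was at 0.0186, 0.0405 and 0.0176 FPKM in sgNAT10 cells, against 0.14, 0.118 and 0.129 FPKM in WT cells (log2 change -2.29 ± 0.51, adjusted p = 0.0114). Pcdhb19 was at 0, 0.00731 and 0 FPKM in sgNAT10 cells, against 0.116, 0.0336 and 0.0589 FPKM in WT cells (log2 change -4.50 ± 1.10, adjusted p = 0.0171). Pcdhb22 was at 0, 0.0261 and 0.00934 FPKM in sgNAT10 cells, against 0.221, 0.0773 and 0.0571 FPKM in WT cells (log2 change -3.27 ± 1.03, adjusted p = 0.0447). The calls for Pcdhb7, Pcdhb18 and Pcdhb19 were lost without sgNAT10 3 or WT 1 (adjusted p up to 0.0588, 0.0645 and 0.0824), and that for Pcdhb22 without any library except sgNAT10 2 (up to 0.19). WT 1 had the highest beta sum of the WT libraries. In the same libraries fibroblast markers summed to 1041, 1114 and 1131 FPKM in sgNAT10 cells, against 1409, 1679 and 1440 FPKM in WT cells, macrophage markers to 34.3, 31.6 and 28 FPKM in sgNAT10 cells, against 11.4, 11.4 and 15.9 FPKM in WT cells and pericyte markers to 9.59, 8.29 and 5.96 FPKM in sgNAT10 cells, against 20.4, 21.2 and 9.65 FPKM in WT cells. None of these 3 sums overlapped between the genotypes, but the pericyte sums nearly met, at 9.59 FPKM in sgNAT10 1 and 9.65 FPKM in WT 3. Of the pericyte genes Acta2, Myh11 and Rgs5 overlapped, and Cspg4 alone did not. Most of the fibroblast sum was Vim, and Col1a1 and Lum overlapped, as did Adgre1 among the macrophage genes. The part of these cells in the beta values was not tested.

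The other named beta genes in TC1 cells had lower means in sgNAT10 cells; Pcdhb14 was tested and missed the threshold, and the others had too few counts to be tested. Pcdhb15 was at 0, 0.0151 and 0.0441 FPKM in sgNAT10 cells, against 0.244, 0.127 and 0.0387 FPKM in WT cells. Pcdhb14 was at 0.00749, 0.0143 and 0 FPKM in sgNAT10 cells, against 0.0998, 0.0397 and 0.021 FPKM in WT cells (adjusted p = 0.0637). Pcdhb10 was at 0 FPKM in all 3 sgNAT10 libraries, against 0.0208, 0.0219 and 0.0219 FPKM in WT cells. The groups were separate for Pcdhb14 and Pcdhb10. Pcdhb6 was at 0 FPKM in all 3 sgNAT10 libraries, against 0.0159, 0.0529 and 0.0103 FPKM in WT cells. Pcdhb4 was at 0 FPKM in all 3 sgNAT10 libraries, against 0.0798, 0 and 0.00855 FPKM in WT cells. Pcdhb3 was at 0, 0 and 0.0163 FPKM in sgNAT10 cells, against 0.0312, 0 and 0.0238 FPKM in WT cells. Pcdhb4, Pcdhb6 and Pcdhb10 were at 0 in all 3 sgNAT10 libraries, but in WT libraries they held few estimated counts, 20, 0 and 3 for Pcdhb4, 4, 12 and 3 for Pcdhb6, and 4 in each library for Pcdhb10. For Pcdhb4 these counts come almost wholly from WT 1 and the groups overlap, and for Pcdhb6 most come from WT 2, so no fold is given. Pcdhb9 was at 0.0162, 0 and 0.0202 FPKM in sgNAT10 cells, against 0.0148, 0.0365 and 0.0463 FPKM in WT cells and Pcdhb12 at 0.0215, 0.0103 and 0.0102 FPKM in sgNAT10 cells, against 0.049, 0.0121 and 0.00707 FPKM in WT cells, with overlapping groups.

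**Figure D3:**
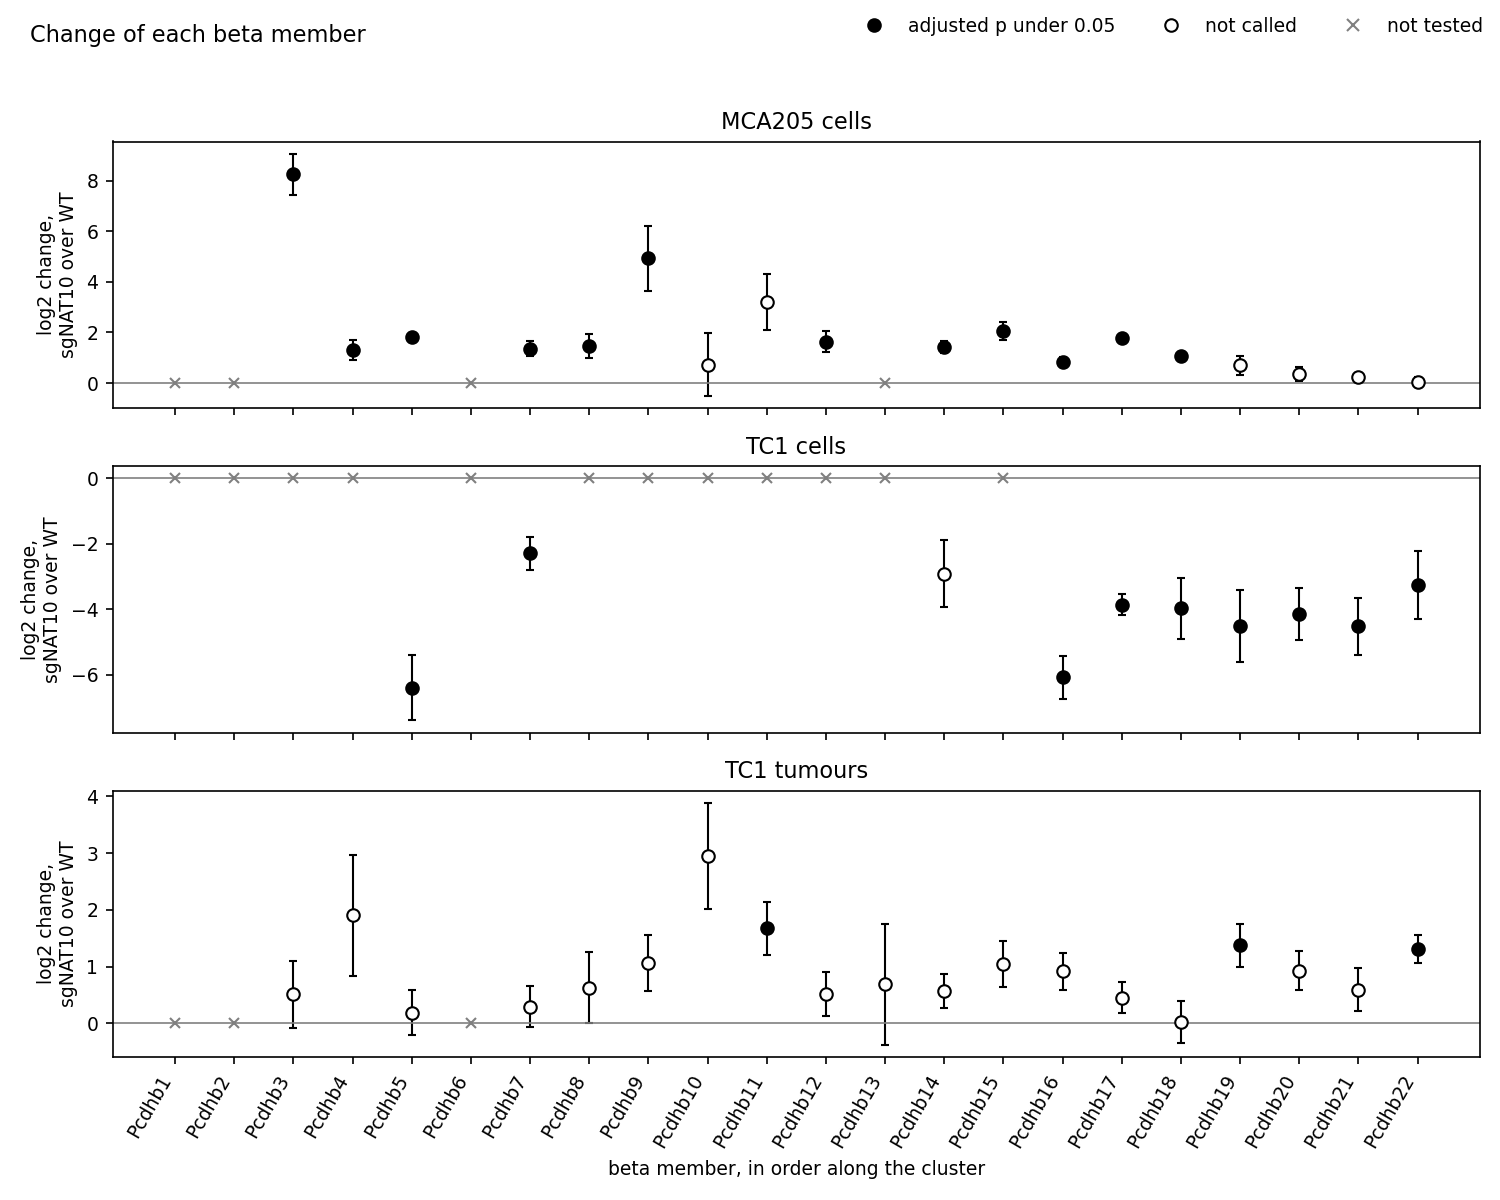
Log2 change (sgNAT10 over WT) of each beta member in order along the cluster, from edgeR's quasi-likelihood test, in MCA205 cells, TC1 cells and TC1 tumours, each with its own axis range. Points are fitted values and bars standard errors; filled points passed an adjusted p of 0.05, crosses were not tested, and the fitted value of Pcdhb3 in MCA205 cells is set against WT libraries that were all at 0. The points lie above 0 in MCA205 cells and tumours and below 0 in TC1 cells.

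In the tumours the beta genes stood on the higher side again, mostly short of the threshold. Of 19 tested, 3 rose, 0 fell and 16 were not called, with 7 under an unadjusted p of 0.05 (DESeq2 called no fall either). The mean was higher in sgNAT10 tumours for 21 of 21 listed genes, and the groups did not overlap for 10. The edgeR calls made up 15.79% of the beta genes tested, beside 17.4% of all genes. Here too the shares of all genes under an unadjusted p or without overlap were not counted. Pcdhb22 was the highest, at 4.5, 4.3 and 3.73 FPKM in sgNAT10 tumours, against 1.08, 1.31 and 2.38 FPKM in WT tumours (log2 change 1.31 ± 0.24, adjusted p = 0.0155). Pcdhb19 was at 0.734, 0.766 and 0.492 FPKM in sgNAT10 tumours, against 0.16, 0.17 and 0.395 FPKM in WT tumours (log2 change 1.37 ± 0.38, adjusted p = 0.0463). Pcdhb11 averaged 0.126 ± 0.0395 FPKM in sgNAT10 tumours and 0.0361 ± 0.00335 FPKM in WT tumours (log2 change 1.67 ± 0.46, adjusted p = 0.0467). These 3 calls depended on single libraries. That for Pcdhb11 was lost when any 1 library was left out (adjusted p 0.0728 to 0.193), that for Pcdhb19 without any library except WT 3 (up to 0.153), and that for Pcdhb22 without any sgNAT10 library or WT 2 (up to 0.0698). Without WT 3, the library with the highest beta level among the WT tumours, 7 members were called higher. Over all tumour genes tested, the share called was 2.79% to 23.1% with 1 library left out, beside 17.4% with all libraries.

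Most other tumour differences missed the threshold. Pcdhb17 was at 2.69, 1.98 and 1.95 FPKM in sgNAT10 tumours, against 1.04, 1.28 and 2.26 FPKM in WT tumours (log2 change 0.45 ± 0.27, adjusted p = 0.282). Pcdhb5 was at 0.70, 0.716 and 0.507 FPKM in sgNAT10 tumours, against 0.32, 0.383 and 0.898 FPKM in WT tumours (log2 change 0.19 ± 0.40, adjusted p = 0.765). Pcdhb16 was at 1.57, 1.38 and 1.16 FPKM in sgNAT10 tumours, against 0.403, 0.576 and 1.08 FPKM in WT tumours (log2 change 0.92 ± 0.33, adjusted p = 0.0915). For Pcdhb17 and Pcdhb5 WT 3 lay within or above the sgNAT10 range, and for Pcdhb16 just below it. Pcdhb20 was at 1.44, 1.75 and 1.53 FPKM in sgNAT10 tumours, against 0.483, 0.587 and 1.28 FPKM in WT tumours (log2 change 0.93 ± 0.34, adjusted p = 0.104). Pcdhb21 was at 1.54, 1.28 and 0.866 FPKM in sgNAT10 tumours, against 0.394, 0.73 and 1.19 FPKM in WT tumours (log2 change 0.59 ± 0.38, adjusted p = 0.298). Pcdhb18 was at 0.505, 0.567 and 0.588 FPKM in sgNAT10 tumours, against 0.265, 0.461 and 0.84 FPKM in WT tumours (log2 change 0.02 ± 0.37, adjusted p = 0.981). The groups were separate for Pcdhb20 and overlapped for Pcdhb21 and Pcdhb18, and none of the 3 was called. Pcdhb14 was at 0.646, 0.53 and 0.528 FPKM in sgNAT10 tumours, against 0.239, 0.31 and 0.536 FPKM in WT tumours. Pcdhb15 was at 0.232, 0.212 and 0.316 FPKM in sgNAT10 tumours, against 0.102, 0.0892 and 0.142 FPKM in WT tumours. Pcdhb9 was at 0.646, 0.676 and 0.362 FPKM in sgNAT10 tumours, against 0.107, 0.215 and 0.442 FPKM in WT tumours. Among them the groups were separate for Pcdhb15. Pcdhb7 was at 0.251, 0.276 and 0.384 FPKM in sgNAT10 tumours, against 0.236, 0.174 and 0.276 FPKM in WT tumours. Pcdhb10 was at 0.106, 0.0799 and 0.145 FPKM in sgNAT10 tumours, against 0, 0.0204 and 0.0205 FPKM in WT tumours. Pcdhb6 was at 0.105, 0.0436 and 0.0317 FPKM in sgNAT10 tumours, against 0.00865, 0.0156 and 0.0157 FPKM in WT tumours. The groups were separate for Pcdhb10 and Pcdhb6. Pcdhb12 was at 0.243, 0.21 and 0.276 FPKM in sgNAT10 tumours, against 0.165, 0.113 and 0.193 FPKM in WT tumours. Pcdhb4 was at 0.243, 0.277 and 0.195 FPKM in sgNAT10 tumours, against 0, 0.138 and 0.0471 FPKM in WT tumours. Pcdhb3 was at 0.0949, 0.0688 and 0.148 FPKM in sgNAT10 tumours, against 0.0428, 0.0422 and 0.123 FPKM in WT tumours. The groups were separate for Pcdhb12 and Pcdhb4 and overlapped for Pcdhb3, and none of the genes from Pcdhb14 on was called, of which Pcdhb6 had too few counts to be tested.

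Several marker lists of host or other cells also differed between the tumour genotypes without overlap. Endothelial markers summed to 48.5, 42.6 and 39.4 FPKM in sgNAT10 tumours, against 21.9, 22.5 and 28.9 FPKM in WT tumours, and skeletal muscle markers to 81.5, 52.9 and 45.1 FPKM in sgNAT10 tumours, against 13.6, 10.8 and 10.8 FPKM in WT tumours. Pericyte and smooth muscle markers summed to 21.9, 27.8 and 22.5 FPKM in sgNAT10 tumours, against 67.6, 73.1 and 38.9 FPKM in WT tumours. Of these genes Acta2 was lower and Rgs5 higher in every sgNAT10 tumour than in every WT tumour, and Cspg4 and Myh11 overlapped. Rgs5 was at 10.44, 12.4 and 10.02 FPKM in sgNAT10 tumours, against 5.64, 6.55 and 8.05 FPKM in WT tumours. Schwann and glia markers summed to 1.46, 1.77 and 2.02 FPKM in sgNAT10 tumours, against 0.772, 0.982 and 1.07 FPKM in WT tumours. Macrophage and T cell marker sums overlapped between the genotypes. The fibroblast sum overlapped too, but most of it was Vim, and of its 8 genes Col1a1, Fn1, Lum and Thy1 were each higher in every sgNAT10 tumour than in every WT tumour. Lum, for one, was at 11.5, 5.92 and 12.5 FPKM in sgNAT10 tumours, against 2.02, 2.62 and 3.42 FPKM in WT tumours. The part of these cells in the tumour values was not tested. For neurons, which use the clusters most, 3 of 6 markers (Rbfox3, Snap25 and Syt1) stayed under 0.1 FPKM in every tumour, and the neuron sum of 12.1, 10.5 and 11.2 FPKM in sgNAT10 tumours, against 43.8, 41.5 and 36.6 FPKM in WT tumours came mostly from Tubb3 and was lower in every sgNAT10 tumour.

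Whether the sgNAT10 difference itself differed between sets was tested as the difference of the log2 changes. Against TC1 cells, the difference in MCA205 cells was called for 23 of 39 members tested (59.0%), 20 with a larger and 3 with a smaller log2 change in MCA205 cells, beside 35.3% of 20504 genes. Of 18 beta genes tested 15 were called, all with the larger change in MCA205 cells. The difference was 5.58 ± 0.29 for Pcdhb17, 6.85 ± 0.71 for Pcdhb16 and 8.15 ± 1.02 for Pcdhb5 (adjusted p = 3.51e-07, 3.52e-05 and 0.000133). The tumours were called to differ from TC1 cells for 18 of 44 members (40.9%), 16 with a larger and 2 with a smaller log2 change in tumours, beside 26.1% of 21112 genes. Of 21 beta genes 13 were called, all with the larger change in tumours, among them Pcdhb17 at 4.28 ± 0.43, Pcdhb20 at 5.03 ± 0.79 and Pcdhb22 at 4.54 ± 0.91 (adjusted p = 4.69e-05, 0.000912 and 0.00392). Some beta genes called here had too few counts to be tested in TC1 cells alone. Both tests use the same 6 TC1 cell libraries, so they are not independent. Without MCA205 WT 1 and sgNAT10 2 the first count was 13 members.

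WT levels of the beta genes were ordered alike in all 3 sets. Spearman's rho of the WT means over the 22 genes was 0.87 between MCA205 and TC1 cells, 0.87 between MCA205 cells and tumours and 0.81 between TC1 cells and tumours; gene length and sequence are shared by these points. Between sgNAT10 and WT libraries of the same set, rho was 0.89 in MCA205 cells, 0.97 in tumours and 0.43 in TC1 cells, where the sgNAT10 values are close to 0.

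In the gamma cluster the C-type gene Pcdhgc3 carried the bulk. In mouse cortical neurons its product promotes branching of dendrites. In MCA205 cells it stood at 46.8, 46.5 and 48 FPKM in sgNAT10 cells, against 49.4, 47.8 and 46.9 FPKM in WT cells, with overlapping groups (log2 change -0.01 ± 0.04, adjusted p = 0.801). In TC1 cells it was at 47.2, 50.3 and 49.7 FPKM in sgNAT10 cells, against 40.8, 38.1 and 41.8 FPKM in WT cells (log2 change 0.25 ± 0.06, adjusted p = 0.0168), without overlap. The tumours had 30.2, 24.1 and 20.1 FPKM in sgNAT10 tumours, against 30.0, 37.9 and 53 FPKM in WT tumours (log2 change -0.80 ± 0.19, adjusted p = 0.0327). Here sgNAT10 1 overlapped WT 1, and WT 3 was the highest library. The TC1 call was lost without WT 2 (adjusted p = 0.0923), and the tumour call without any sgNAT10 library or WT 2 (up to 0.13). Its log2 change minus that in TC1 cells was -0.31 ± 0.08 for MCA205 cells (adjusted p = 0.0149) and -1.06 ± 0.24 for tumours (adjusted p = 0.00799). Spliced coding transcripts made up 89.4% to 99.8% of its FPKM in each library. On those transcripts alone, its log2 change in TC1 cells was 0.35 and in tumours -0.76.

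The other C-type genes were low. Pcdhgc4, which in mouse is needed for the survival of interneurons, averaged 0.351 ± 0.271 FPKM in sgNAT10 tumours and 0.0718 ± 0.00601 FPKM in WT tumours, a rise (log2 change 2.15 ± 0.59, adjusted p = 0.0456) that was lost without any library except sgNAT10 1 (adjusted p up to 0.15); Pcdhgc4 was not called in the cell lines. Pcdhgc5 was not called in any set, with adjusted p of 0.601, 0.405 and 0.21.

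Among the alternate gamma genes, which form an A and a B type by sequence, Pcdhgb1 was the most abundant in MCA205 cells. It stood at 4.03, 5.12 and 4.41 FPKM in sgNAT10 cells, against 2.23, 1.95 and 2.46 FPKM in WT cells (log2 change 1.03 ± 0.12, adjusted p = 0.000718), with each sgNAT10 library above each WT library. In TC1 cells it was near 0, at 0.00644, 0 and 0.0469 FPKM in sgNAT10 cells, against 0.272, 0.076 and 0.0305 FPKM in WT cells (log2 change -2.87 ± 1.25, adjusted p = 0.118). The tumours had 0.463, 0.673 and 0.256 FPKM in sgNAT10 tumours, against 1.9, 5.44 and 6.11 FPKM in WT tumours (log2 change -3.35 ± 0.47, adjusted p = 0.00754), and here every sgNAT10 tumour lay below every WT tumour. The MCA205 and tumour calls for this gene held with each library left out. The tumour fall was thus opposite in sign to the rise in MCA205 cells.

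In MCA205 cells Pcdhgb7 was at 0.678, 0.738 and 0.475 FPKM in sgNAT10 cells, against 0.969, 0.581 and 0.573 FPKM in WT cells (log2 change -0.16 ± 0.29, adjusted p = 0.723). In TC1 cells it rose, at 1.77, 1.14 and 1.2 FPKM in sgNAT10 cells, against 0.494, 0.807 and 0.63 FPKM in WT cells (log2 change 1.05 ± 0.28, adjusted p = 0.0231). In tumours it rose as well, at 2.39, 2.92 and 1.49 FPKM in sgNAT10 tumours, against 0.701, 0.117 and 0.42 FPKM in WT tumours (log2 change 2.28 ± 0.63, adjusted p = 0.0462). It was the only member called higher in both TC1 cells and TC1 tumours. The TC1 call was lost without WT 1 (adjusted p = 0.0518) and the tumour call without any library except WT 1 (up to 0.144). In MCA205 cells Pcdhgb6 was at 0.0945, 0.0667 and 0.0444 FPKM in sgNAT10 cells, against 0.334, 0.249 and 0.214 FPKM in WT cells (log2 change -1.89 ± 0.40, adjusted p = 0.00829). The TC1 set had 0.0716, 0.108 and 0.0647 FPKM in sgNAT10 cells, against 0.193, 0.308 and 0.26 FPKM in WT cells (log2 change -1.65 ± 0.36, adjusted p = 0.0109). In tumours it was at 0.235, 0.149 and 0.324 FPKM in sgNAT10 tumours, against 0.384, 0.423 and 0.438 FPKM in WT tumours (log2 change -0.91 ± 0.36, adjusted p = 0.116). The sgNAT10 values of Pcdhgb6 lay below the WT values in all 3 sets, with the tumour difference short of the threshold and the TC1 call lost without sgNAT10 3 or WT 2 (adjusted p up to 0.0562).

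Of 16 gamma genes tested in MCA205 cells 2 rose, 3 fell and 11 were not called. The calls made up 31.25%, below the 40.6% of all genes. Pcdhga1 was at 0.559, 0.345 and 0.233 FPKM in sgNAT10 cells, against 0.101, 0.0124 and 0.103 FPKM in WT cells (log2 change 2.62 ± 0.82, adjusted p = 0.0404). Pcdhga2 averaged 0.00562 ± 0.00973 FPKM in sgNAT10 cells and 0.0939 ± 0.0141 FPKM in WT cells (log2 change -3.81 ± 1.16, adjusted p = 0.0367), and Pcdhgb8 0.0908 ± 0.0116 FPKM in sgNAT10 cells and 0.262 ± 0.157 FPKM in WT cells (log2 change -1.52 ± 0.47, adjusted p = 0.0393). The calls were lost for Pcdhga1 without any library except WT 2 (adjusted p up to 0.142), for Pcdhga2 without any except sgNAT10 2 (up to 0.103), and for Pcdhgb8 without any sgNAT10 library or WT 3 (up to 0.125). With sgNAT10 cells near 0, Pcdhga2 passed the count filter through the WT libraries and was bound to differ. Pcdhgb2 was at 0.851, 1.45 and 1.04 FPKM in sgNAT10 cells, against 0.418, 0.227 and 0.619 FPKM in WT cells (log2 change 1.44 ± 0.51, adjusted p = 0.0642). Pcdhga6 was at 0.439, 0.183 and 0.269 FPKM in sgNAT10 cells, against 0.119, 0.147 and 0.143 FPKM in WT cells (log2 change 1.12 ± 0.39, adjusted p = 0.0586). Both had separate groups but missed the threshold. The A-type genes together stood at 1.7, 1.6 and 1.88 FPKM in sgNAT10 cells, against 0.845, 1.26 and 0.965 FPKM in WT cells and the B-type genes at 5.79, 7.48 and 6.1 FPKM in sgNAT10 cells, against 4.12, 3.21 and 4.31 FPKM in WT cells, and both sums were higher in every sgNAT10 library than in every WT library. Pcdhga3 was at 0.341, 0.476 and 0.248 FPKM in sgNAT10 cells, against 0.132, 0.435 and 0.376 FPKM in WT cells, Pcdhga4 at 0.0823, 0.23 and 0.368 FPKM in sgNAT10 cells, against 0.0777, 0.109 and 0.094 FPKM in WT cells and Pcdhga9 at 0.0132, 0.0623 and 0 FPKM in sgNAT10 cells, against 0.0235, 0.022 and 0 FPKM in WT cells.

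In TC1 cells 2 of 18 gamma genes tested rose, Pcdhgb7 and Pcdhgc3, and 2 fell, Pcdhgb6 and Pcdhga9. These calls made up 22.22%, below the 37.9% of all genes. Pcdhga9 was at 0.0235, 0 and 0 FPKM in sgNAT10 cells, against 0.343, 0.284 and 0.251 FPKM in WT cells (log2 change -5.55 ± 0.99, adjusted p = 0.00462), a call that held with each library left out. With sgNAT10 cells near 0, this gene passed the count filter through the WT libraries and was bound to differ. Several genes at the start of the cluster had lower means in sgNAT10 cells without being called, while Pcdhga5 among them had a slightly higher mean. Pcdhga1 was at 0.0767, 0.0895 and 0 FPKM in sgNAT10 cells, against 0.212, 0.0615 and 0.269 FPKM in WT cells (log2 change -1.72 ± 1.06, adjusted p = 0.252). Pcdhgb2 was at 0.141, 0.0344 and 0.123 FPKM in sgNAT10 cells, against 0.287, 0.241 and 0.205 FPKM in WT cells (log2 change -1.51 ± 0.61, adjusted p = 0.0953). Pcdhga6 was at 0, 0.0245 and 0.0492 FPKM in sgNAT10 cells, against 0.152, 0.313 and 0.0656 FPKM in WT cells (log2 change -2.77 ± 1.05, adjusted p = 0.0803). For Pcdhgb2 and Pcdhga6 no sgNAT10 value reached a WT value. Pcdhga3 was at 0.0219, 0.0198 and 0.0285 FPKM in sgNAT10 cells, against 0.24, 0.144 and 0.010 FPKM in WT cells, and Pcdhga4 at 0.0491, 0.0756 and 0.0228 FPKM in sgNAT10 cells, against 0.0576, 0.11 and 0.0833 FPKM in WT cells. The gamma sum without Pcdhgc3 was 2.93, 3.19 and 3.5 FPKM in sgNAT10 cells, against 3.41, 3.64 and 2.9 FPKM in WT cells, with overlapping groups.

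In the tumours 21 gamma genes were tested, of which 2 rose (Pcdhgb7 and Pcdhgc4), 3 fell (Pcdhgb1, Pcdhga7 and Pcdhgc3) and 16 were not called. The calls made up 23.81%, beside 17.4% of all genes. Pcdhga7 averaged 0.0833 ± 0.018 FPKM in sgNAT10 tumours and 0.326 ± 0.167 FPKM in WT tumours (log2 change -2.60 ± 0.60, adjusted p = 0.0283), a call lost without any sgNAT10 library or WT 2 (adjusted p up to 0.101). Pcdhga4 was at 0.557, 0.248 and 0.458 FPKM in sgNAT10 tumours, against 0.101, 0.191 and 0.158 FPKM in WT tumours (log2 change 1.39 ± 0.41, adjusted p = 0.0541). Pcdhga3 was at 0.604, 1.14 and 0.523 FPKM in sgNAT10 tumours, against 0.37, 0.263 and 0.542 FPKM in WT tumours (log2 change 0.83 ± 0.39, adjusted p = 0.179). Pcdhga1 was at 0.283, 0.431 and 0.277 FPKM in sgNAT10 tumours, against 0.0652, 0.0448 and 0.215 FPKM in WT tumours (log2 change 1.53 ± 0.59, adjusted p = 0.117). Values of Pcdhga4 and Pcdhga1 did not overlap between genotypes. Pcdhga9 was at 0.312, 0.758 and 0.111 FPKM in sgNAT10 tumours, against 0, 0.214 and 0.0172 FPKM in WT tumours (log2 change 2.21 ± 1.46, adjusted p = 0.321). Pcdhgb2 was at 0.803, 0.513 and 0.365 FPKM in sgNAT10 tumours, against 0.159, 0.606 and 0.365 FPKM in WT tumours (log2 change 0.47 ± 0.71, adjusted p = 0.667). Pcdhga6 was at 1.01, 1.67 and 1.18 FPKM in sgNAT10 tumours, against 0.878, 0.513 and 2.12 FPKM in WT tumours (log2 change 0.05 ± 0.47, adjusted p = 0.951). These 3 genes overlapped widely. The B-type sum was 4.48, 4.94 and 2.89 FPKM in sgNAT10 tumours, against 6.44, 7.11 and 8.0 FPKM in WT tumours, while the A-type sum was 4.28, 6.13 and 3.97 FPKM in sgNAT10 tumours, against 2.91, 2.33 and 4.59 FPKM in WT tumours, with overlap.

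**Figure D4:**
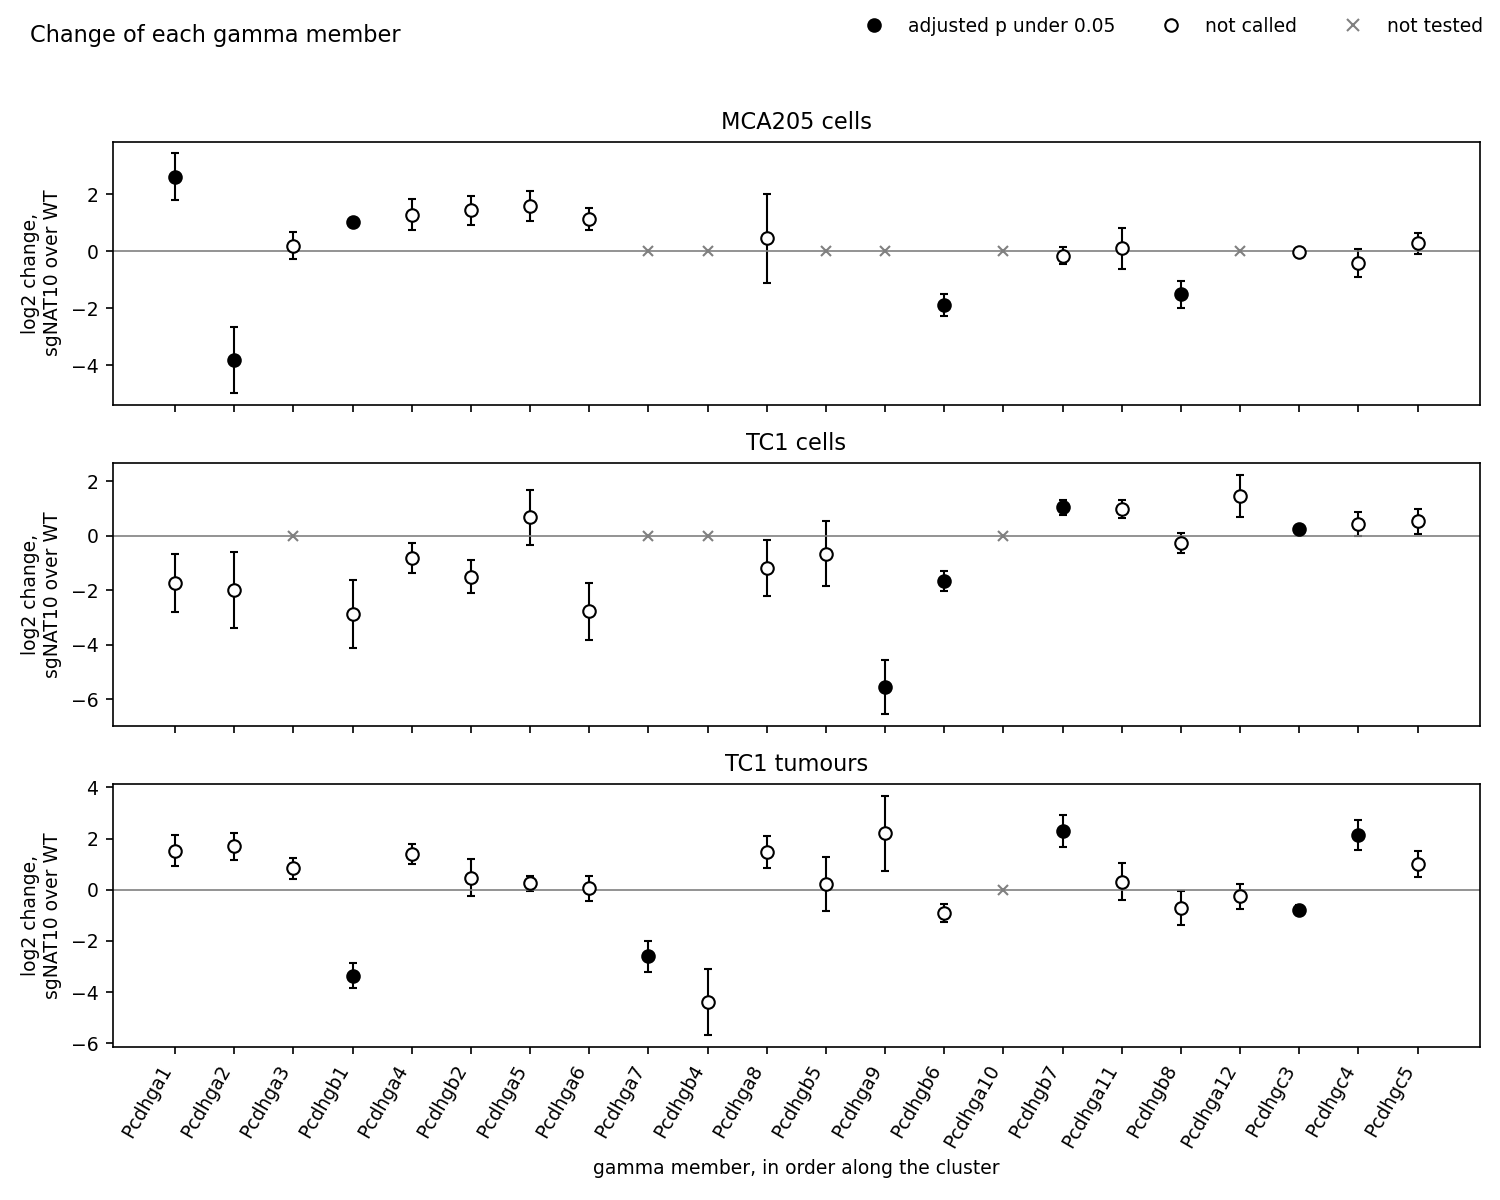
Log2 change (sgNAT10 over WT) of each gamma member in order along the cluster, from edgeR's quasi-likelihood test, in MCA205 cells, TC1 cells and TC1 tumours, each with its own axis range. Points are fitted values and bars standard errors; filled points passed an adjusted p of 0.05 and crosses were not tested. Calls fall on both sides of 0 in each set, and Pcdhgb1 lies at 1.03 in MCA205 cells and at -3.35 in tumours.

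For the differences between sets, 7 of 20 gamma genes tested (35.0%) were called between MCA205 and TC1 cells, a share near the 35.3% of all genes. Pcdhga1, Pcdhgb1, Pcdhgb2, Pcdhga6 and Pcdhga9 had the larger log2 change in MCA205 cells, and Pcdhgb7 and Pcdhgc3 the smaller. For Pcdhgb1 the difference was 3.83 ± 1.15 (adjusted p = 0.0246), lost without TC1 sgNAT10 1 or TC1 WT 1 (up to 0.0732). Between tumours and TC1 cells 4 of 21 (19.05%) were called, below the 26.1% of all genes: Pcdhga3, Pcdhga4 and Pcdhga9 with the larger change in tumours, and Pcdhgc3 with the smaller. For Pcdhga9 this difference was 7.75 ± 2.17 (adjusted p = 0.0219), lost without tumour sgNAT10 2, TC1 sgNAT10 2 or TC1 sgNAT10 3 (up to 0.0578). Spliced coding gamma transcripts, which hold most of the gamma FPKM, end in the same 3 constant exons. The split of reads among these genes therefore rests on the authors' estimation. Beta genes have near-identical relatives, so theirs does in part.

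The alpha cluster was close to silent. Of 14 genes, 3 were listed in MCA205 cells, 10 in TC1 cells and 6 in tumours, and 1, Pcdhac2, had enough counts to be tested, in TC1 cells. Pcdhac2 is the C-type gene at the end of the cluster, needed in mouse for the even spacing of serotonergic axons. It stood at 0.225, 0.59 and 0.452 FPKM in sgNAT10 cells, against 0, 0 and 0.0172 FPKM in WT cells (log2 change 5.96 ± 1.06, adjusted p = 0.00462), a rise that held with each library left out. With WT cells near 0, Pcdhac2 passed the count filter through the sgNAT10 libraries alone and was bound to differ, so the call adds little to the values. In MCA205 cells it was at 0.0238, 0 and 0.019 FPKM in sgNAT10 cells, against 0.0263, 0.0767 and 0.00651 FPKM in WT cells. In tumours it was at 0 FPKM in all 3 sgNAT10 libraries, against 0.00763, 0.0194 and 0 FPKM in WT tumours. The log2 change in MCA205 cells minus that in TC1 cells was -7.29 ± 1.89, and that in tumours minus that in TC1 cells was -10.94 ± 2.38 (adjusted p = 0.0118 and 0.00885). The second value is set against sgNAT10 tumours that were all at 0 and is no bound. In these TC1 libraries neuron markers summed to 3.45, 13 and 11 FPKM in sgNAT10 cells, against 6.43, 4.4 and 4.07 FPKM in WT cells. Its members differed in direction. Map2 was at 2.9, 3.85 and 3.84 FPKM in sgNAT10 cells, against 0.20, 0.251 and 0.347 FPKM in WT cells. Tubb3 was at 0.351, 1.6 and 0.787 FPKM in sgNAT10 cells, against 5.24, 3.06 and 2.67 FPKM in WT cells. Snap25 was at 0.0461, 5.08 and 4.42 FPKM in sgNAT10 cells, against 0.727, 0.722 and 0.84 FPKM in WT cells. Map2 was thus higher and Tubb3 lower in every sgNAT10 library than in every WT library, and Snap25 overlapped. Syt1, Stmn2 and Rbfox3 overlapped too, and the library with the lowest Pcdhac2 among the sgNAT10 libraries was also the one with the lowest neuron sum. The part of neuron-like RNA in the Pcdhac2 value was not tested. The 12 alternate alpha identifiers and Pcdhac1 stayed at or below 0.0566 FPKM in every library.

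**Figure D5:**
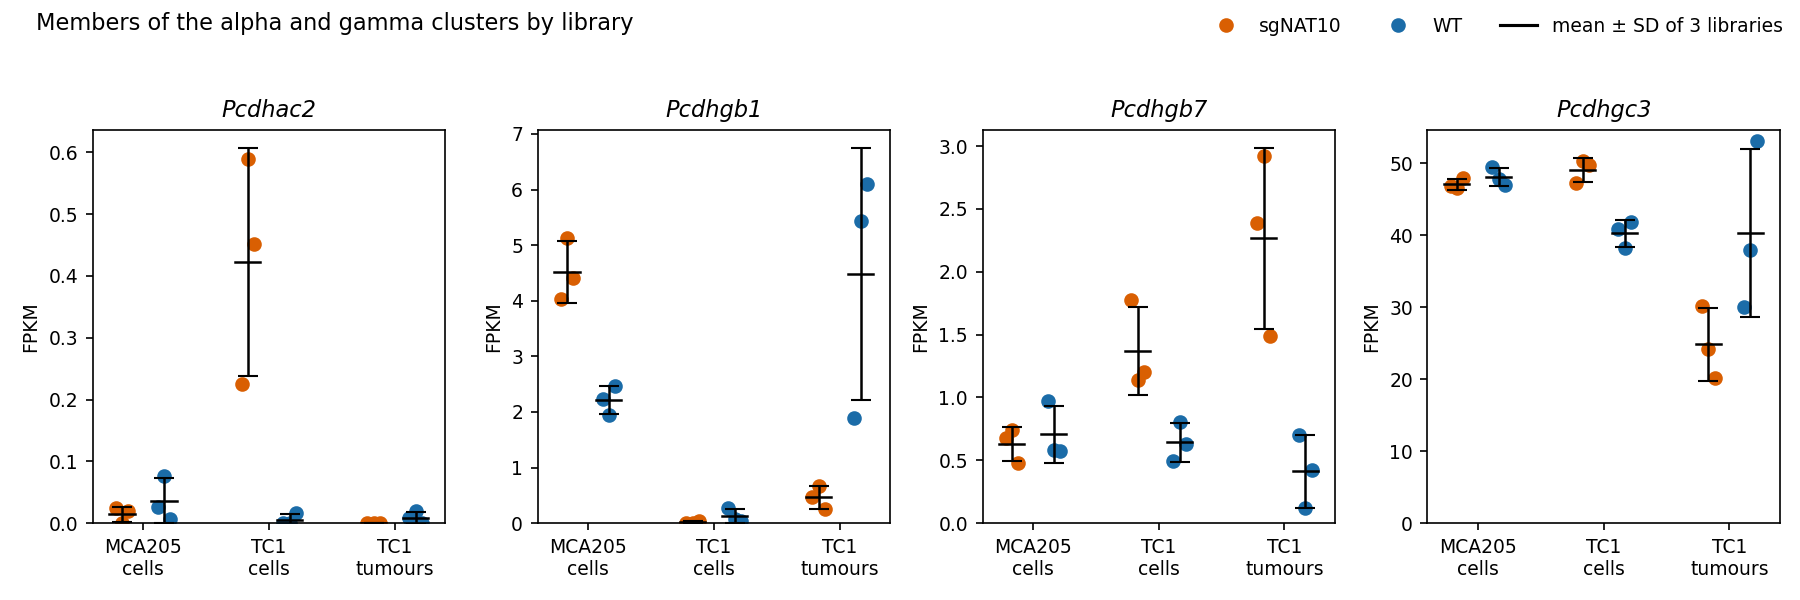
FPKM of Pcdhac2, Pcdhgb1, Pcdhgb7 and Pcdhgc3 in each library of MCA205 cells, TC1 cells and TC1 tumours, with a separate axis for each gene. Points are libraries, sgNAT10 left of WT, and lines with bars are means ± SD of 3 libraries; Pcdhac2 lies above 0.2 FPKM in the sgNAT10 TC1 libraries alone, and Pcdhgc3 stays at or above 20.1 FPKM in every library.

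Of 26 genes known to regulate the clusters or DNA methylation, 18 fell and 1 rose in MCA205 cells (73.1%, beside 40.6% of all genes), with a median log2 change of -0.37. The maintenance DNA methyltransferase gene Dnmt1 averaged there 48.5 ± 2.52 FPKM in sgNAT10 cells and 114 ± 9.39 FPKM in WT cells (log2 change -1.25 ± 0.06, adjusted p = 1.09e-05). Dnmt3b, the enzyme that methylates the alternate promoters in mouse embryos, averaged 1.09 ± 0.0809 FPKM in sgNAT10 cells and 3.0 ± 0.639 FPKM in WT cells (log2 change -1.36 ± 0.17, adjusted p = 0.000952). Uhrf2, a reader of modified cytosine, averaged 0.392 ± 0.331 FPKM in sgNAT10 cells and 23 ± 0.934 FPKM in WT cells (log2 change -5.99 ± 0.75, adjusted p = 0.000857), and Tet2, which oxidises methylcytosine, 1.7 ± 0.285 FPKM in sgNAT10 cells and 2.49 ± 0.289 FPKM in WT cells (log2 change -0.66 ± 0.09, adjusted p = 0.000952). These 4 calls held with each library left out. Of the other central regulators, Ctcf and Smchd1 fell by 0.37 and 0.40 on the log2 scale (adjusted p = 0.00111 and 0.00101).

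In TC1 cells 5 of the 26 regulators rose and 6 fell (42.3%, beside 37.9% of all genes), with a median log2 change of 0.09. Dnmt1 averaged 73.2 ± 0.534 FPKM in sgNAT10 cells and 90.9 ± 2.81 FPKM in WT cells (log2 change -0.36 ± 0.05, adjusted p = 0.00231), a call lost without sgNAT10 2 or sgNAT10 3 (adjusted p 0.00445 to 0.0579 over the libraries left out). The cohesin subunit gene Stag2 rose, at 21.3 ± 1.17 FPKM in sgNAT10 cells and 11 ± 0.656 FPKM in WT cells (log2 change 0.89 ± 0.07, adjusted p = 0.000151), and Wiz, a zinc finger protein of the G9a complex, fell, at 16.9 ± 1.01 FPKM in sgNAT10 cells and 25.4 ± 2.71 FPKM in WT cells (log2 change -0.64 ± 0.07, adjusted p = 0.000526). In tumours 1 rose and 7 fell (30.8%, beside 17.4% of all genes), with a median of -0.17. Uhrf1, which brings DNMT1 to replicated DNA, averaged 22.6 ± 1.62 FPKM in sgNAT10 tumours and 57.2 ± 4.89 FPKM in WT tumours (log2 change -1.48 ± 0.10, adjusted p = 0.00195), and the cohesin gene Rad21 64.6 ± 3.96 FPKM in sgNAT10 tumours and 115 ± 14.7 FPKM in WT tumours (log2 change -0.95 ± 0.14, adjusted p = 0.00771). The corepressor gene Trim28 averaged 86.2 ± 2.17 FPKM in sgNAT10 tumours and 123 ± 3.84 FPKM in WT tumours (log2 change -0.67 ± 0.14, adjusted p = 0.0194), and Dnmt1 17.2 ± 2.28 FPKM in sgNAT10 tumours and 24.3 ± 6.04 FPKM in WT tumours (log2 change -0.60 ± 0.17, adjusted p = 0.0489). The Rad21 call was lost without sgNAT10 2, the Trim28 call without any sgNAT10 library or WT 2, and the Dnmt1 call without any library except WT 1 (adjusted p 0.00444 to 0.0548, 0.0125 to 0.099 and 0.0227 to 0.149 over the libraries left out).

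Genes of proteins that bind or process protocadherins were called in both directions. Of 22 tested in MCA205 cells 6 rose and 10 fell (median -0.12), or 72.7% beside 40.6% of all genes. Of 23 in TC1 cells 5 rose and 4 fell (median 0.08), or 39.1%, near the 37.9% of all genes. Of 23 in tumours 1 rose and 1 fell (median -0.13), or 8.70% beside 17.4% of all genes. Ptk2b, whose kinase product PYK2 is bound and held back by protocadherin tails, averaged in the MCA205 set 12.5 ± 0.461 FPKM in sgNAT10 cells and 2.28 ± 0.251 FPKM in WT cells (log2 change 2.51 ± 0.09, adjusted p = 4.39e-06). The TC1 set averaged 5.34 ± 0.444 FPKM in sgNAT10 cells and 1.94 ± 0.712 FPKM in WT cells (log2 change 1.38 ± 0.25, adjusted p = 0.00525). It was the partner gene with the smallest p in MCA205 cells and was higher in both lines. Also in MCA205 cells, Cyfip2, of the WAVE complex that drives actin branching, averaged 1.43 ± 0.197 FPKM in sgNAT10 cells and 0.643 ± 0.161 FPKM in WT cells (log2 change 1.16 ± 0.20, adjusted p = 0.0039), and the kinase gene Rock1 9.92 ± 0.226 FPKM in sgNAT10 cells and 15.5 ± 0.603 FPKM in WT cells (log2 change -0.66 ± 0.04, adjusted p = 3.26e-05). Psen2, of the gamma-secretase that cuts protocadherins, averaged 2.98 ± 0.236 FPKM in sgNAT10 cells and 4.27 ± 0.219 FPKM in WT cells (log2 change -0.61 ± 0.17, adjusted p = 0.0243). The adhesion gene Nlgn1 averaged 0.237 ± 0.0616 FPKM in sgNAT10 cells and 0.0109 ± 0.0106 FPKM in WT cells (log2 change 4.21 ± 0.99, adjusted p = 0.0137) and in tumours 0.137 ± 0.0448 FPKM in sgNAT10 tumours and 0.011 ± 0.00416 FPKM in WT tumours (log2 change 3.37 ± 0.49, adjusted p = 0.00789). The Psen2 call was lost without sgNAT10 1, sgNAT10 2 or WT 3, and the MCA205 call for Nlgn1 without sgNAT10 1 (adjusted p up to 0.0861 and 0.0556). With very low WT levels in both sets, Nlgn1 may have passed the count filter through the sgNAT10 libraries alone. Its calls then add little to the values.

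Solitary protocadherins are encoded outside the clusters. In MCA205 cells 2 of 8 tested rose and 2 fell (median -0.16), beside 40.6% of all genes called. Pcdh10 averaged 1.24 ± 0.0604 FPKM in sgNAT10 cells and 0.0425 ± 0.0111 FPKM in WT cells (log2 change 4.79 ± 0.23, adjusted p = 1.36e-05), Pcdh7 18.2 ± 0.736 FPKM in sgNAT10 cells and 11.3 ± 1.68 FPKM in WT cells (log2 change 0.67 ± 0.07, adjusted p = 0.000497), and Pcdh17 0.00716 ± 0.00796 FPKM in sgNAT10 cells and 0.0842 ± 0.0238 FPKM in WT cells (log2 change -3.52 ± 1.07, adjusted p = 0.0373), a call lost without sgNAT10 1 or any WT library (adjusted p up to 0.133). With a very low level in sgNAT10 cells, Pcdh17 may have passed the count filter through the WT libraries alone. Its call then adds little to the values. In TC1 cells 1 of 8 rose and 4 fell (median -1.76), or 62.5% beside 37.9% of all genes. Pcdh19, mutated in a human epilepsy, averaged 0.363 ± 0.0188 FPKM in sgNAT10 cells and 5.01 ± 0.781 FPKM in WT cells (log2 change -3.79 ± 0.15, adjusted p = 1.71e-05), and Pcdh7 3.45 ± 0.0998 FPKM in sgNAT10 cells and 19.1 ± 2.11 FPKM in WT cells (log2 change -2.44 ± 0.10, adjusted p = 1.82e-05). Pcdh18 averaged 1.92 ± 0.273 FPKM in sgNAT10 cells and 6.2 ± 0.43 FPKM in WT cells (log2 change -1.73 ± 0.13, adjusted p = 0.000164), and Pcdh17 0.0441 ± 0.0164 FPKM in sgNAT10 cells and 0.452 ± 0.0438 FPKM in WT cells (log2 change -3.37 ± 0.32, adjusted p = 0.000343). The gene that rose, Pcdh9, averaged 0.189 ± 0.109 FPKM in sgNAT10 cells and 0.0284 ± 0.0264 FPKM in WT cells (log2 change 3.28 ± 0.84, adjusted p = 0.0202), a call lost without sgNAT10 2, sgNAT10 3 or WT 2 (up to 0.0677). Its WT level was very low, so it may have passed the count filter through the sgNAT10 libraries alone.

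In tumours 6 of 9 solitary protocadherin genes tested rose and 0 fell (median 0.96), or 66.7% beside 17.4% of all genes. Pcdh18 averaged 14.7 ± 2.09 FPKM in sgNAT10 tumours and 6.25 ± 2.96 FPKM in WT tumours (log2 change 1.16 ± 0.28, adjusted p = 0.032), and Pcdh19 13.5 ± 1.36 FPKM in sgNAT10 tumours and 8.32 ± 1.51 FPKM in WT tumours (log2 change 0.59 ± 0.12, adjusted p = 0.0211). Pcdh7 averaged 8.47 ± 0.551 FPKM in sgNAT10 tumours and 5.55 ± 1.24 FPKM in WT tumours (log2 change 0.66 ± 0.13, adjusted p = 0.0167), and Pcdh10 0.107 ± 0.0278 FPKM in sgNAT10 tumours and 0.0159 ± 0.00601 FPKM in WT tumours (log2 change 2.57 ± 0.48, adjusted p = 0.0151). With a very low WT level, Pcdh10 may have passed the count filter through the sgNAT10 tumours alone. The others were Pcdh12, an endothelial member, with log2 change 1.03 ± 0.28, adjusted p = 0.0467, and Pcdh1, with log2 change 0.73 ± 0.20, adjusted p = 0.0457. All 6 calls were lost when at least 3 of the 6 libraries were left out singly, including sgNAT10 2, sgNAT10 3 and WT 2, with adjusted p of at most 0.153.

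Of 23 genes beside and between the clusters tested in MCA205 cells, 4 rose and 12 fell (69.6%, beside 40.6% of all genes), with a median log2 change of -0.28. Taf7, a transcription factor subunit gene between the beta and gamma clusters on the opposite strand, averaged 1.39 ± 0.12 FPKM in sgNAT10 cells and 2.9 ± 0.135 FPKM in WT cells (log2 change -1.05 ± 0.12, adjusted p = 0.00047), so it fell where the beta genes rose. Tmco6, on the alpha side, averaged 6.73 ± 0.403 FPKM in sgNAT10 cells and 11.5 ± 0.493 FPKM in WT cells (log2 change -0.78 ± 0.07, adjusted p = 0.000194). Arap3 averaged 0.716 ± 0.045 FPKM in sgNAT10 cells and 1.07 ± 0.193 FPKM in WT cells (log2 change -0.75 ± 0.19, adjusted p = 0.0168), and Dnd1, which overlaps Wdr55 on the other strand and is therefore uncertain, 0.777 ± 0.10 FPKM in sgNAT10 cells and 0.348 ± 0.0752 FPKM in WT cells (log2 change 1.16 ± 0.31, adjusted p = 0.0219). The Arap3 call was lost without sgNAT10 1, sgNAT10 3 or WT 1, and that of Dnd1 without sgNAT10 1 or sgNAT10 2 (adjusted p up to 0.0561 and 0.0905).

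In TC1 cells 5 of 22 neighbours rose and 2 fell (median 0.16), or 31.8% beside 37.9% of all genes, among them Arap3, on the gamma side, at 15 ± 3.03 FPKM in sgNAT10 cells and 9.19 ± 0.98 FPKM in WT cells (log2 change 0.75 ± 0.16, adjusted p = 0.00956), and Cd14, a receptor subunit for lipopolysaccharide, at 22.2 ± 6.27 FPKM in sgNAT10 cells and 12.6 ± 2.11 FPKM in WT cells (log2 change 0.76 ± 0.22, adjusted p = 0.0317), lost without WT 1 or WT 2 (adjusted p up to 0.0894). In tumours 2 of 23 rose and 6 fell (median -0.10), or 34.8% beside 17.4% of all genes. Hdac3, a histone deacetylase gene on the gamma side, averaged 39.8 ± 1.24 FPKM in sgNAT10 tumours and 54.9 ± 1.05 FPKM in WT tumours (log2 change -0.61 ± 0.11, adjusted p = 0.0154). Wdr55 averaged 16.5 ± 1.48 FPKM in sgNAT10 tumours and 25.6 ± 2.66 FPKM in WT tumours (log2 change -0.77 ± 0.16, adjusted p = 0.0195), Gnpda1 12 ± 0.545 FPKM in sgNAT10 tumours and 16.9 ± 1.59 FPKM in WT tumours (log2 change -0.63 ± 0.15, adjusted p = 0.0314) and Arap3 5.53 ± 0.737 FPKM in sgNAT10 tumours and 3.16 ± 1.09 FPKM in WT tumours (log2 change 0.83 ± 0.17, adjusted p = 0.0206). Each of these tumour calls was lost without sgNAT10 1, 2 or 3 (adjusted p up to 0.129). In TC1 cells Taf7 was at 1.31, 1.5 and 1.64 FPKM in sgNAT10 cells, against 1.25, 1.16 and 1.09 FPKM in WT cells, with no call (adjusted p = 0.218).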

How the data were processed

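Gene expression was measured by RNA sequencing. FastQC, Trim Galore, Bowtie2 and featureCounts are named without versions, with the build mm10, in the submitters' processing notes. The deposited tables give each transcript's FPKM and an estimated count. The deposited estimated counts are whole, and of those below 50, 100.0% equalled the FPKM times the length and a factor of the library, rounded up, so they are the authors' estimates and not tallies. The sources used here do not give how reads were divided among transcripts or whether strand was used. No value column lacked a sample (0 columns).

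Transcripts were summed per gene identifier, and 99.7% of identifiers matched the GENCODE M21 annotation of mm10. Libraries held 51661298 to 78501790 estimated counts, so members at the lowest levels rest on a few counts. Within groups, no libraries agreed within sampling noise. Each set was fitted apart with edgeR 4.0.16 (TMM, filterByExpr, quasi-likelihood test, R 4.3.3), and differences between sets were contrasts over 12 libraries, with 0 for genes that a table does not list. The procedure was tested on simulated data. Summaries used Python 3.11.15, pandas 2.3.3, numpy 2.4.6, scipy 1.17.1 and matplotlib 3.10.9. Alternatives were other scalings and filters, DESeq2 1.42.0, limma 3.58.1 on log2(FPKM + 1) and log2(FPKM + 0.1), a replicate block and libraries left out. Coding transcripts alone and counts rounded down were added after the data were seen. Members named with values in all libraries were fixed by a rule on calls and level (28 genes, with 6 others called in 1 set). The members and gene lists were chosen with earlier results of these data known.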

Additional observations from a re-analysis of the deposited data

Results flagged for a closer look

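The difference of the log2 changes (sgNAT10 over WT) between sets was tested as an interaction in edgeR's quasi-likelihood test, with Benjamini-Hochberg adjustment over all genes tested, and 41 such differences of single members passed an adjusted p of 0.05. Sizes and directions of the main ones are given above, both families use the same TC1 cell libraries, and the explanation of the differences was not tested. 

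Between MCA205 cells and TC1 cells, adjusted p for beta members was 0.0101 for Pcdhb3, 0.0221 for Pcdhb4, 0.000133 for Pcdhb5, 0.0005 for Pcdhb7, 0.0151 for Pcdhb9, 0.0461 for Pcdhb12, 0.00906 for Pcdhb14, 0.00849 for Pcdhb15, 3.52e-05 for Pcdhb16, 3.51e-07 for Pcdhb17, 0.00217 for Pcdhb18, 0.00554 for Pcdhb19, 0.00145 for Pcdhb20, 0.00104 for Pcdhb21 and 0.0322 for Pcdhb22. Between MCA205 cells and TC1 cells, adjusted p for gamma members was 0.0493 for Pcdhga1, 0.0246 for Pcdhgb1, 0.0243 for Pcdhgb2, 0.0326 for Pcdhga6, 0.0387 for Pcdhga9, 0.0395 for Pcdhgb7 and 0.0149 for Pcdhgc3. For the alpha member it was 0.0118 for Pcdhac2. The calls for Pcdhb12, Pcdhb22, Pcdhga1, Pcdhgb1, Pcdhgb2, Pcdhga6, Pcdhga9 and Pcdhgb7 were lost when at least 1 of the 12 libraries was left out. Pcdhb3, Pcdhb4, Pcdhb9, Pcdhb12 and Pcdhb15 had too few counts to be tested in TC1 cells alone, and Pcdhac2 too few in MCA205 cells alone. Their calls thus rest partly on values near 0.

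Between TC1 tumours and TC1 cells, adjusted p for beta members was 0.00121 for Pcdhb5, 0.00609 for Pcdhb6, 0.00886 for Pcdhb7, 0.00836 for Pcdhb10, 0.0247 for Pcdhb14, 0.0359 for Pcdhb15, 7.12e-05 for Pcdhb16, 4.69e-05 for Pcdhb17, 0.0129 for Pcdhb18, 0.00247 for Pcdhb19, 0.000912 for Pcdhb20, 0.00196 for Pcdhb21 and 0.00392 for Pcdhb22. Between TC1 tumours and TC1 cells, adjusted p for gamma members was 0.0357 for Pcdhga3, 0.036 for Pcdhga4, 0.0219 for Pcdhga9 and 0.00799 for Pcdhgc3. For the alpha member it was 0.00885 for Pcdhac2. The calls for Pcdhb14, Pcdhb15, Pcdhga3, Pcdhga4 and Pcdhga9 were lost when at least 1 of the 12 libraries was left out. Pcdhb6, Pcdhb10 and Pcdhb15 had too few counts to be tested in TC1 cells alone, and Pcdhb6 and Pcdhac2 too few in tumours alone. Their calls thus rest partly on very low or absent counts.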

How the results depend on the processing

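Of the comparisons' counts, those from RLE size factors and library size alone stayed within 1.5 times the values reported. With limma on log2(FPKM + 1) and log2(FPKM + 0.1), which tests fewer members by construction, 4 members rose and 0 fell in MCA205 cells, 0 fell in TC1 cells, 2 rose and 1 fell in tumours, and the sgNAT10 effect differed for 6 members between MCA205 and TC1 cells and for 6 and 7 between tumours and TC1 cells. Without a filter 1 member fell in MCA205 cells, and 1 rose and 1 fell in tumours. With 1 CPM required in 3 libraries 1 fell in MCA205 cells and 5 fell in TC1 cells. DESeq2 called 10 higher in tumours. On coding transcripts alone 1 fell in MCA205 cells and 1 rose in tumours, and Nat10 in MCA205 cells had a log2 change of -0.46 (edgeR adjusted p = 0.0343). Without MCA205 WT 1 and sgNAT10 2 the effect differed for 13 members between MCA205 and TC1 cells. The gamma sum in MCA205 cells had a log2 ratio of 0.12 in CPM. The cause of these differences was not tested.

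With 1 library left out, 9 to 13 members rose and 1 to 2 fell in MCA205 cells, 2 to 6 rose and 7 to 11 fell in TC1 cells, and 0 to 7 rose and 1 to 4 fell in tumours. Over all genes tested, 32.8% to 37.5%, 26.8% to 40.9% and 2.79% to 23.1% were then called in MCA205 cells, TC1 cells and tumours. The effect differed for 15 to 21 members between MCA205 and TC1 cells and for 15 to 17 between tumours and TC1 cells. The log2 ratio of the beta sum was 1.16 to 1.26, -3.90 to -3.42 and 0.66 to 1.35 in MCA205 cells, TC1 cells and tumours, that of the gamma sum 0.05 to 0.08, 0.23 to 0.29 and -0.72 to -0.34, and that of the alpha sum -0.35 to 1.30, 3.06 to 4.08 and 0.88 to 1.91.

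Replicate numbers are shared between genotypes, but libraries of the same number did not deviate together (correlations of -0.548, -0.581 and 0.174 in MCA205 cells, -0.109, 0.00447 and 0.0792 in TC1 cells, and -0.112, 0.091 and -0.184 in tumours), so the numbers give no pairing. With the replicate block 8 members rose and 1 fell in MCA205 cells, 1 rose in TC1 cells, 0 rose and 1 fell in tumours, and the effect differed for 13 members between MCA205 and TC1 cells. Depth limits the alpha genes and the sgNAT10 TC1 levels of beta genes, where libraries hold few or 0 counts.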
